A study of Mus musculus with 14 samples.

Results

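The genes described here encode 9 growth factor receptor tyrosine kinases of the mouse cerebral cortex: the FGF receptor genes Fgfr1, Fgfr2 and Fgfr3, the EGF receptor gene Egfr with its relatives Erbb2, Erbb3 and Erbb4, and the neurotrophin receptor genes Ntrk2 (TrkB) and Ntrk3 (TrkC). They were taken by symbol from the 32830 genes of the table, and all 9 passed the filter on low values. The cortex came from SW strain mice carrying the Aldh1l1-GFP reporter, a transgene that marks astrocytes, at postnatal day 14, and all 6 groups share strain, age and reporter. Upper and deep layers were dissected by hand. From each, GFP+ cells (astrocytes, 3 libraries per layer) and GFP- cells (non-astrocytes, 2 per layer) were sorted live after papain dissociation, and whole layer tissue (bulk tissue, 2 per layer) was processed beside them, 14 libraries in all. Whether libraries of a group came from separate animals, and how many animals were pooled, is not given in the labels, so p-values measure the spread between these libraries, which may be technical.

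Receptor tyrosine kinases span the cell membrane, pair up when a growth factor binds outside the cell, and phosphorylate each other and their adaptors inside it, which starts the ERK, PI3K and phospholipase C cascades. FGF receptors steer the birth and maturation of astrocytes, EGF receptor signalling drives glial proliferation, and ErbB4 with the neuregulins is best known from inhibitory interneurons. TrkB is the receptor of BDNF, and astrocytes are known for a truncated form of it that lacks the kinase domain.

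The libraries held 18226457 to 30316765 reads in genes, and values are normalised read counts, that is reads divided by 1 size factor per library. Sorting was checked on the summed level of 10 markers per cell type. Astrocyte markers summed to 1073793 or more in every astrocyte library against at most 36000 in non-astrocytes, while neuron markers summed to 805 to 1001 in astrocytes, 4612 to 9959 in non-astrocytes and 130130 to 170650 in bulk tissue, so the sorted non-astrocytes held few neuron transcripts. The cell type field of the labels names bulk tissue for the upper layer astrocytes and non-astrocytes, against their titles; their titles were followed. Among astrocytes, the library of deep layer replicate 2 had the highest Egfr and Ntrk2 values and the lowest Fgfr1 and Erbb2 values, and it lay far from the others in Egfr. Upper layer non-astrocytes replicate 1 had reads in 30333 genes, against at most 26356 in any other library. Its Fgfr2 and Erbb4 values were 544 and 523, beside 565 and 559 in upper layer non-astrocytes replicate 2.

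A total of 7 of the receptor genes were higher in astrocytes than in non-astrocytes, from 2.37-fold for Erbb2 to 44.1-fold for Fgfr3, and the other 2, Erbb3 and Erbb4, were lower by 56.9-fold and 38.9-fold. Against bulk tissue the same split was seen, with 7 genes higher and 2 lower. Of all 22575 genes tested, 66.3% were called between astrocytes and non-astrocytes, 29.6% higher and 36.8% lower in astrocytes. Against bulk tissue 64.8% were called, 28.8% higher and 36.1% lower. The median log2 difference of the 9 genes was 2.46 against non-astrocytes and 2.84 against bulk tissue, beside -0.08 and -0.10 over all genes. In no receptor gene did the astrocyte libraries overlap with either of the other fractions, a separation that 51.8% of all genes showed against non-astrocytes and 53.0% against bulk tissue. Both comparisons use the same 6 astrocyte libraries. Folds are on the log2(value + 1) scale and come with adjusted p-values from limma.

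**Figure D1:**
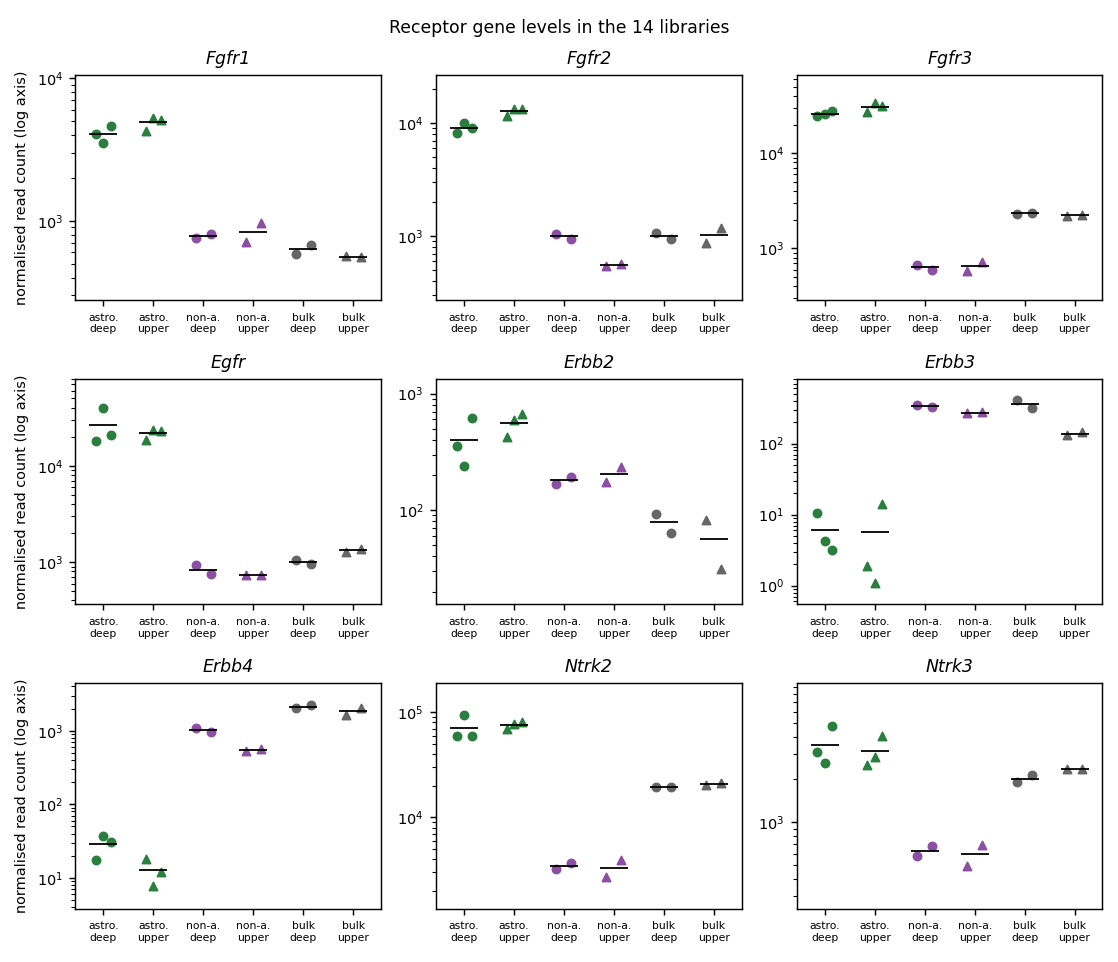
Normalised read count (log axis) of each receptor gene in the 14 libraries; circles are deep and triangles upper layer libraries, bars are group means, and astro., non-a. and bulk are astrocytes, non-astrocytes and bulk tissue. Astrocytes hold the highest points in 7 panels, and the lowest in those of Erbb3 and Erbb4.

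The starts of the receptor genes differ in sequence. RefSeq windows of 300 bases, 250 before to 50 after a start on GRCm38.p6, were matched for 6 of the 9 genes. They are shown for the 4 genes with the most reads per kb of exon in astrocytes and for Erbb4, which ran opposite to them. Capitals mark GC boxes, GGGCGG or its reverse complement CCGCCC, which 35.7% of 32851 such windows hold.
Fgfr3, chr5:33721474-33721773, plus strand: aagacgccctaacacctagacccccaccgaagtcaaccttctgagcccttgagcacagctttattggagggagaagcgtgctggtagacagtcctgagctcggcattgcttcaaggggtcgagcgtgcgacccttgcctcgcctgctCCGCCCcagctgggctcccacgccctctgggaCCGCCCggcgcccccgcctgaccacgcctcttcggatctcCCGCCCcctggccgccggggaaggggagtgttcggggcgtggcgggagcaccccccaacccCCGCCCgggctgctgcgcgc
Egfr, chr11:16751953-16752252, plus strand: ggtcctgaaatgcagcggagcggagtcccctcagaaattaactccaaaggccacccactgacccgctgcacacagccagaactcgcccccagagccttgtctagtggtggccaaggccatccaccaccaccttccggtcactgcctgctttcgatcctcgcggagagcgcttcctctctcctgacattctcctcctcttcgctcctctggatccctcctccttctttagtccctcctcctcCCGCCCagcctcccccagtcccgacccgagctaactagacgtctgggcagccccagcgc
Ntrk2, chr13:58806319-58806618, plus strand: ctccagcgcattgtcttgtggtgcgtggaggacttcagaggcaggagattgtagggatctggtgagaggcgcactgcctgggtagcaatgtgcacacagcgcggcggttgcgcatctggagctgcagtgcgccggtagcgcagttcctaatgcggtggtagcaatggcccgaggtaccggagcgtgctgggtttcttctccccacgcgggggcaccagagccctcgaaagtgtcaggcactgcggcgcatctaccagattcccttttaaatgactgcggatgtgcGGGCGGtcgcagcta
Fgfr2, chr7:130266759-130267058, minus strand: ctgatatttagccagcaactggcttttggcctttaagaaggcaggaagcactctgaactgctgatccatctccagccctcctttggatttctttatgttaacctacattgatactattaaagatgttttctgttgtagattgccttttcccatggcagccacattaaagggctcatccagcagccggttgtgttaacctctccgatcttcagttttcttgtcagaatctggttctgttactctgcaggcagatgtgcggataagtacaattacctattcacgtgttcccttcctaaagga
Erbb4, chr1:69108010-69108309, minus strand: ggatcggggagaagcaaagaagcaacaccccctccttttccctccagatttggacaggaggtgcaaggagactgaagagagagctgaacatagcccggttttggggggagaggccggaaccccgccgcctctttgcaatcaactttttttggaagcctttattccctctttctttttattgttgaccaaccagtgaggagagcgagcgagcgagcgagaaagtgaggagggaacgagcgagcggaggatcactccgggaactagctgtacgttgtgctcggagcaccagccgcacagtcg
This Fgfr3 window holds 4 GC boxes and 26 CpG pairs, and a window at a further Fgfr3 start holds 2 GC boxes and 30 CpG pairs. Egfr and Ntrk2 hold 1 GC box each, with 15 and 23 CpG pairs. Fgfr2, Erbb2 and Erbb4 hold none. The Fgfr2 window has 4 CpG pairs, below the median of 7.0 over all windows, against 21 for Erbb2 and 17 for Erbb4. The letters TATAAA, found on either strand in 13.6% of all windows, are in none of the 7 windows of these genes. These matches describe letters only.

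Among the FGF receptors, Fgfr3 (ENSMUSG00000054252, chr5:33721674-33737068, plus strand, GENCODE M21 on GRCm38), a gene long used as an astrocyte marker, read 24550, 26046 and 27568 in deep layer astrocytes and 26912, 33526 and 31267 in upper layer astrocytes. It read 673 and 590 in deep and 573 and 722 in upper layer non-astrocytes. Bulk tissue gave 2325 and 2378 in deep and 2216 and 2257 in upper layers. Astrocytes were therefore far above bulk tissue, and bulk tissue above non-astrocytes, with no overlap. The difference from non-astrocytes was 44.1-fold (log2 5.46, SE 0.11, adjusted p = 4.52e-14) and that from bulk tissue 12.3-fold (log2 3.62, adjusted p = 4.57e-13). For comparison, the 10 astrocyte markers had median log2 differences of 5.36 and 2.65. A transcript model on the opposite strand shares 998 bp of exon with Fgfr3, and without known strand use its reads cannot be told apart from those of Fgfr3.

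Fgfr2 (ENSMUSG00000030849, chr7:130162451-133123350, minus strand), a receptor of the same family, read 8211, 10081 and 9061 in deep and 11551, 13414 and 13515 in upper layer astrocytes. Non-astrocytes gave 1058 and 956 in deep and 544 and 565 in upper layers. Bulk tissue gave 1066 and 940 in deep and 864 and 1191 in upper layers. The astrocyte libraries stood above all others, and within them every upper layer library was above every deep layer one. Astrocytes were 14.4-fold above non-astrocytes (log2 3.85, SE 0.12, adjusted p = 6.18e-13) and 10.7-fold above bulk tissue (log2 3.42, adjusted p = 1.70e-12). GENCODE M21 extends Fgfr2 far upstream of its RefSeq start at 130266808, on the 5′ side, and shares 314 bp of its exons with Ctbp2 on the same strand. Ctbp2 itself read 105 to 646 over the libraries, and its part in the Fgfr2 values was not tested.

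Fgfr1 (ENSMUSG00000031565, chr8:25513654-25575718, plus strand), the family member known from neurons and glia alike, had 453 reads per kb of exon in astrocytes, against 1062 for Fgfr2 and 3955 for Fgfr3. It read 4034, 3515 and 4639 in deep and 4280, 5285 and 5075 in upper layer astrocytes, against 753 and 806 in deep and 707 and 965 in upper layer non-astrocytes. Bulk tissue gave 589 and 673 in deep and 563 and 556 in upper layers. The fractions did not overlap, with astrocytes highest and bulk tissue lowest. Astrocytes were 5.52-fold above non-astrocytes (log2 2.46, SE 0.12, adjusted p = 1.22e-10) and 7.45-fold above bulk tissue (log2 2.90, adjusted p = 1.89e-11). An antisense gene, Gm16159, shares 164 bp of exon with Fgfr1 and read at most 67.3.

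Egfr (ENSMUSG00000020122, chr11:16752203-16918158, plus strand), the receptor of EGF, TGF-alpha and HB-EGF, read 17993, 40042 and 20916 in deep and 18437, 23784 and 22898 in upper layer astrocytes. Non-astrocytes gave 925 and 747 in deep and 729 and 732 in upper layers. Bulk tissue gave 1052 and 961 in deep and 1286 and 1365 in upper layers. Every astrocyte library was above all others, and deep layer astrocytes replicate 2 was highest by a wide margin. Astrocytes were 29.6-fold above non-astrocytes (log2 4.89, SE 0.18, adjusted p = 4.23e-12) and 20.0-fold above bulk tissue (log2 4.32, adjusted p = 1.52e-11).

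Erbb2 (ENSMUSG00000062312, chr11:98412470-98437716, plus strand) encodes the partner receptor of this family, which binds no known ligand itself. It read 355, 241 and 613 in deep and 423, 597 and 671 in upper layer astrocytes. Non-astrocytes gave 168 and 194 in deep and 175 and 235 in upper layers, and bulk tissue 92.8 and 63.7 in deep and 82.9 and 31.1 in upper layers. Fractions were again separate, but deep layer astrocytes replicate 2, at 241, lay just above the highest non-astrocyte library. The difference was 2.37-fold from non-astrocytes (log2 1.25, SE 0.29, adjusted p = 0.00133) and 7.18-fold from bulk tissue (log2 2.84, adjusted p = 4.04e-07). Erbb2 shares 9 bp of exon with Mien1 on the opposite strand.

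Erbb3 (ENSMUSG00000018166, chr10:128567523-128589652, minus strand), a neuregulin receptor with little kinase activity of its own that is found in the oligodendrocyte lineage, was almost absent from astrocyte libraries. It read 10.6, 4.26 and 3.17 in deep and 1.91, 1.09 and 14.3 in upper layer astrocytes, which rest on 31 reads in all and on 1 to 13 per library. Non-astrocytes gave 348 and 328 in deep and 266 and 281 in upper layers, and bulk tissue 410 and 313 in deep and 132 and 145 in upper layers. Each astrocyte library was far below every other library. Astrocytes were lower by 56.9-fold than non-astrocytes (log2 -5.83, SE 0.45, adjusted p = 1.91e-08) and by 41.7-fold than bulk tissue (log2 -5.38, adjusted p = 5.01e-08). With so few reads the fitted fold depends on the pseudocount: the log2 difference of Erbb3 from non-astrocytes was -4.57 with a pseudocount of 8. Summed reads per size factor gave a non-astrocyte to astrocyte ratio of 52.9, with an exact 95% interval of 37.1 to 78.1. This interval covers counting error only and leaves out the spread between libraries.

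Erbb4 (ENSMUSG00000062209, chr1:68032186-69108059, minus strand), the neuregulin receptor of interneurons, was low in astrocytes as well. It read 17.7, 36.9 and 30.7 in deep and 18.1, 7.63 and 12.1 in upper layer astrocytes, from 107 reads in all. Non-astrocytes gave 1088 and 958 in deep and 523 and 559 in upper layers, and bulk tissue 2016 and 2235 in deep and 1651 and 2062 in upper layers. Bulk tissue was highest, non-astrocytes followed and astrocytes were lowest, without overlap. Astrocytes were lower by 38.9-fold than non-astrocytes (log2 -5.28, SE 0.23, adjusted p = 2.26e-11) and by 103.6-fold than bulk tissue (log2 -6.70, adjusted p = 1.58e-12). The summed reads gave a non-astrocyte to astrocyte ratio of 39.1 (exact 95% interval 32.3 to 47.8, counting error only).

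Ntrk2 (ENSMUSG00000055254, chr13:58806569-59133970, plus strand), the BDNF receptor gene, had 3822 reads per kb of exon in astrocytes, next to Fgfr3, and more than any other of the 9 in non-astrocytes (176) and bulk tissue (1048). It read 59652, 94985 and 59302 in deep and 69962, 77702 and 80753 in upper layer astrocytes. Non-astrocytes gave 3226 and 3693 in deep and 2726 and 3919 in upper layers, and bulk tissue 19604 and 19272 in deep and 20574 and 21383 in upper layers. The fractions were separate in the order astrocytes, bulk tissue, non-astrocytes, and deep layer astrocytes replicate 2 was again the highest library. Astrocytes were 21.6-fold above non-astrocytes (log2 4.44, SE 0.15, adjusted p = 1.75e-12) and 3.60-fold above bulk tissue (log2 1.85, adjusted p = 3.48e-08). Of its 7 coding transcripts in GENCODE M21, 5 have a coding sequence under 70% of the longest (1398 to 2463 bp over all), and counts per gene cannot separate full-length from truncated receptor.

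Ntrk3 (ENSMUSG00000059146, chr7:78175959-78738012, minus strand), which encodes the receptor of the Ntf3 product, differed least from bulk tissue. It read 3115, 2604 and 4769 in deep and 2541, 2883 and 4033 in upper layer astrocytes. Non-astrocytes gave 578 and 683 in deep and 494 and 695 in upper layers, and bulk tissue 1913 and 2135 in deep and 2369 and 2368 in upper layers. Astrocytes lay above bulk tissue by a narrow margin and both lay well above non-astrocytes. The difference was 5.32-fold from non-astrocytes (log2 2.41, SE 0.18, adjusted p = 8.18e-09) and 1.48-fold from bulk tissue (log2 0.56, SE 0.18, adjusted p = 0.0107).

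Non-astrocytes and bulk tissue, in turn, differed in 8 of the 9 genes: Fgfr1 and Erbb2 were higher in non-astrocytes and Fgfr2, Fgfr3, Egfr, Erbb4, Ntrk2 and Ntrk3 lower, where 61.6% of all genes were called, 30.5% higher and 31.1% lower. The libraries of 7 genes did not overlap, against 58.4% of all genes, and those of Fgfr2 and Erbb3 did. Ntrk2 was 6.01-fold lower (log2 -2.59, adjusted p = 3.26e-09), Fgfr3 3.60-fold lower (log2 -1.85), Ntrk3 3.60-fold lower (log2 -1.85) and Erbb4 2.66-fold lower (log2 -1.41, adjusted p = 1.73e-04). Erbb2 was 3.02-fold higher (log2 1.60, adjusted p = 4.24e-04), and Erbb3 was not called (log2 0.45, SE 0.50, adjusted p = 0.456). The SE of Erbb3 also takes in the spread of the astrocyte libraries, and limma on only the groups compared called it (adjusted p = 0.0301). The differences of Fgfr1 (log2 0.43, adjusted p = 0.0120), Fgfr2 (log2 -0.43, adjusted p = 0.00922) and Egfr (log2 -0.57, adjusted p = 0.0224) were small, and single libraries decided their calls. Fgfr1 lost its call without deep bulk replicate 1 (adjusted p = 0.0524) or upper non-astrocyte replicate 2 (0.0569), and Fgfr2 without upper bulk replicate 2 (0.0613). Egfr lost its call without deep non-astrocyte replicate 2 (0.0809), deep bulk replicate 1 (0.0668), upper non-astrocyte replicate 2 (0.0503) or upper bulk replicate 2 (0.0624). Beside this comparison, the 10 astrocyte markers were all lower in non-astrocytes (median log2 -2.69), and the 10 neuron markers were all lower (-4.36). All 10 markers each of mural cells (4.48), microglia (4.23), meningeal fibroblasts (3.70) and endothelial cells (2.80) were higher, as were 9 of 10 of oligodendrocyte precursors (2.52), and of oligodendrocytes 4 were higher and 2 lower (0.23). The part of these cell types in the receptor differences was not tested, and in bulk tissue fewer cells of a type and less RNA per cell cannot be told apart.

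**Figure D2:**
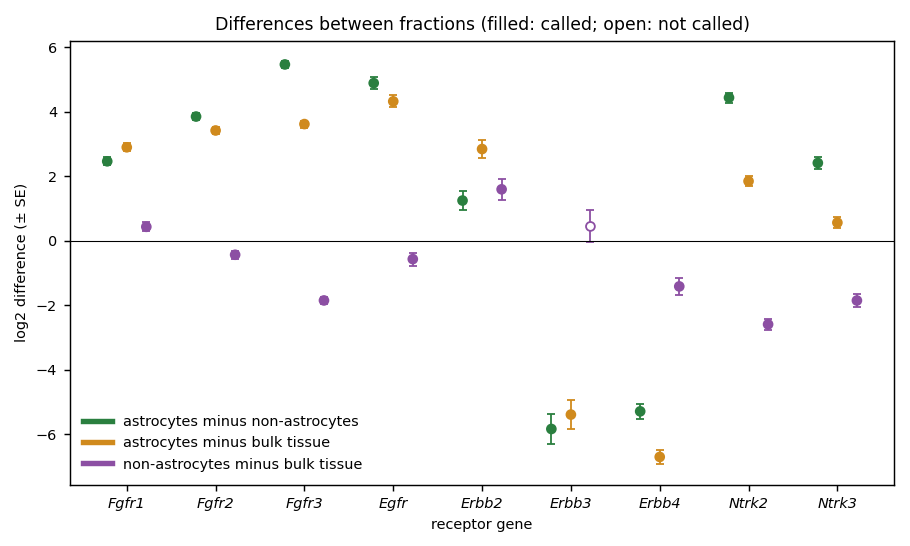
Log2 difference of each receptor gene between the fractions, with both layers weighted equally; bars are standard errors, filled points were called and the open point was not. Erbb3 and Erbb4 are the only genes with negative values for astrocytes, from -5.28 to -6.70 for Erbb4.

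Divided by exon length, levels can be set roughly against each other within a family. The length is that of a gene's annotated exons, from 5.21 kb for Erbb2 to 30.17 kb for Ntrk3. It is not that of the transcripts expressed, so shares and ranks between genes depend on the annotation. In astrocytes Fgfr3 held 72.4% ± 1.58 (SD, n = 6) of the FGF receptor reads per kb, Fgfr2 19.3% ± 1.87 and Fgfr1 8.28% ± 0.65. In non-astrocytes (n = 4) the shares were 36.4% ± 3.70 for Fgfr3, 30.2% ± 7.79 for Fgfr2 and 33.4% ± 4.53 for Fgfr1. The Fgfr2 share there was 36.8% in deep and 23.7% in upper layers. Bulk tissue (n = 4) resembled astrocytes, with 66.9% ± 1.70 from Fgfr3. Among the ErbB receptors, Egfr held 95.3% ± 1.76 in astrocytes, against 31.6% ± 2.82 in non-astrocytes and 32.7% ± 7.26 in bulk tissue. The Egfr share in bulk tissue was 26.4% in deep and 38.9% in upper layers. Erbb4 held 50.5% ± 3.82 in bulk tissue and 28.1% ± 6.22 in non-astrocytes, but 0.076% ± 0.035 in astrocytes, and Erbb3 held 0.048% ± 0.047 there. The Erbb4 share in non-astrocytes was 33.4% in deep and 22.7% in upper layers. Ntrk2 held 97.1% ± 1.12 of Trk reads per kb in astrocytes, 89.6% ± 0.17 in non-astrocytes and 93.5% ± 0.43 in bulk tissue. In astrocytes, Fgfr3 ranked 144 from the top of 22091 genes in mean reads per kb, Ntrk2 156, Egfr 296, Fgfr2 677 and Fgfr1 1980, while Erbb2 ranked 8812 and Erbb3 20596.

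**Figure D3:**
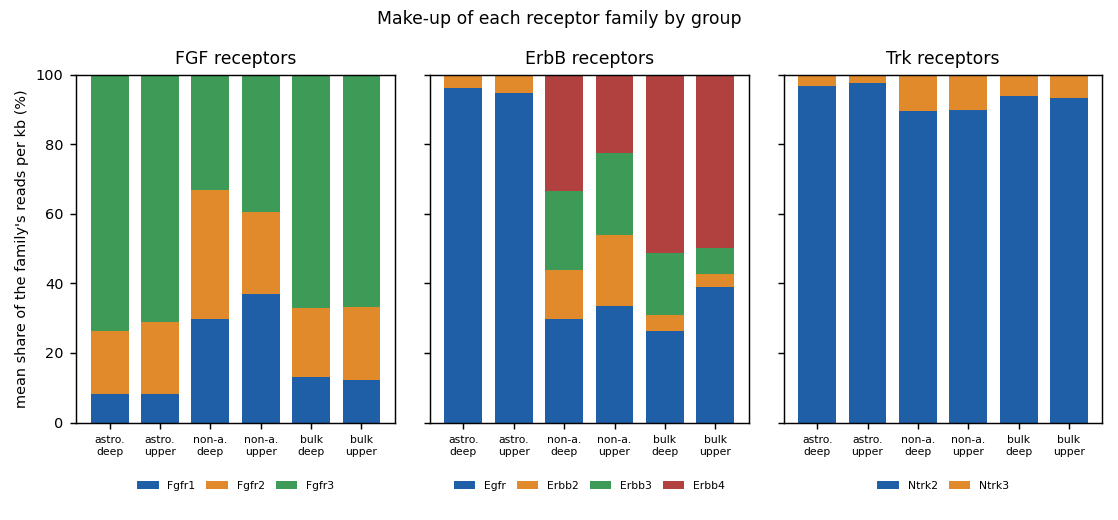
Mean share (%) of each gene in its family's normalised reads per kb of exon, in the 6 groups. Fgfr3 and Egfr take most of the astrocyte bars, and Erbb4 takes about as much as the other ErbB genes together in bulk tissue.

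Between upper and deep layers, the question to which the layer dissection was addressed, no receptor gene was called in any fraction by limma fitted to all 6 groups. In astrocytes, where 0.0797% of all genes (18) were called, and 89 with the replicate number as a block, 2 receptor genes had an unadjusted p below 0.05, and edgeR and DESeq2 called none. Fgfr2 was at log2 0.49 (SE 0.15, unadjusted p = 0.00497, adjusted p = 0.321), the only one of the 9 without overlap between the layers, where 16.0% of all genes had none. Erbb4 was at log2 -1.12 (SE 0.29, adjusted p = 0.207), on means of 12.6 in upper and 28.4 in deep layers. Oligodendrocyte markers, of which 1 of 10 was called lower in upper layer astrocytes (median log2 -1.16), summed to 3767 to 5020 in upper and 5058 to 6254 in deep layer astrocytes. Neuron markers had a median log2 of 0.22 and deep layer neuron markers one of -0.38, with none called. The part of these cell types in the Erbb4 values was not tested. With the block, the adjusted p was 0.171 for Fgfr2 and 0.156 for Erbb4. The other genes ranged from log2 -0.48 (Erbb3) to 0.56 (Erbb2). In all 3 same-numbered pairs of libraries the upper layer value was above the deep layer one for Fgfr1, Fgfr2, Fgfr3 and Erbb2, 4 of the 9, against 19.9% of all genes. Egfr, at -0.20, turned to 0.15 without deep layer astrocytes replicate 2.

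In non-astrocytes, with 0.00443% of all genes called (1), Fgfr2 ran the other way from astrocytes: both upper layer libraries were below both deep layer ones, at means of 554 and 1007 (log2 -0.86, SE 0.18, unadjusted p = 3.08e-04, adjusted p = 0.191). Erbb4 was also lower in value in upper layers, at 541 against 1023 (log2 -0.92, SE 0.36, adjusted p = 1). These 2 genes had an unadjusted p below 0.05. DESeq2 on recovered reads called both, with adjusted p = 0.00423 for Fgfr2 and 0.0179 for Erbb4, and edgeR called none. No overlap between the layers was seen in 4 of the 9 genes (Fgfr2, Egfr, Erbb3 and Erbb4), against 25.5% of all genes. The other values lay between log2 -0.31 and 0.17. Oligodendrocyte markers summed to 55387 to 63435 in upper and 117880 to 159089 in deep layer non-astrocytes (median log2 -1.30, 0 of 10 called). Neuron markers had a median log2 of 0.66 and deep layer neuron markers one of -1.16, with none called. The part of these cell types in the Fgfr2 and Erbb4 values was not tested.

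In bulk tissue, with 0.456% of all genes called (103), no receptor gene had an unadjusted p below 0.05 by limma and edgeR called none. Erbb3 stood out by size, at 132 and 145 in upper against 410 and 313 in deep layers (log2 -1.37, SE 0.70, adjusted p = 0.773). It was called by DESeq2 (adjusted p = 0.0106) and by limma on the 2 bulk groups alone (adjusted p = 0.00209). The SE of 0.70 pools the spread of all 6 groups, so the adjusted p of 0.773 does not measure the bulk libraries alone. The SD of Erbb3 was 128% and 66.9% of the mean in upper and deep layer astrocytes. In upper and deep layer bulk tissue it was 6.87% and 18.9%. Oligodendrocyte markers moved beside Erbb3: their sums were 39650 to 43333 in upper and 131609 to 155217 in deep layer bulk tissue, and 5 of the 10 were called lower in upper layers. Their part in the Erbb3 values was not tested. In bulk tissue 6 genes had no overlap between layers, against 43.8% of all genes: Erbb3, Egfr at log2 0.40, and Fgfr1, Fgfr3, Ntrk2 and Ntrk3 between log2 -0.17 and 0.23.

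**Figure D4:**
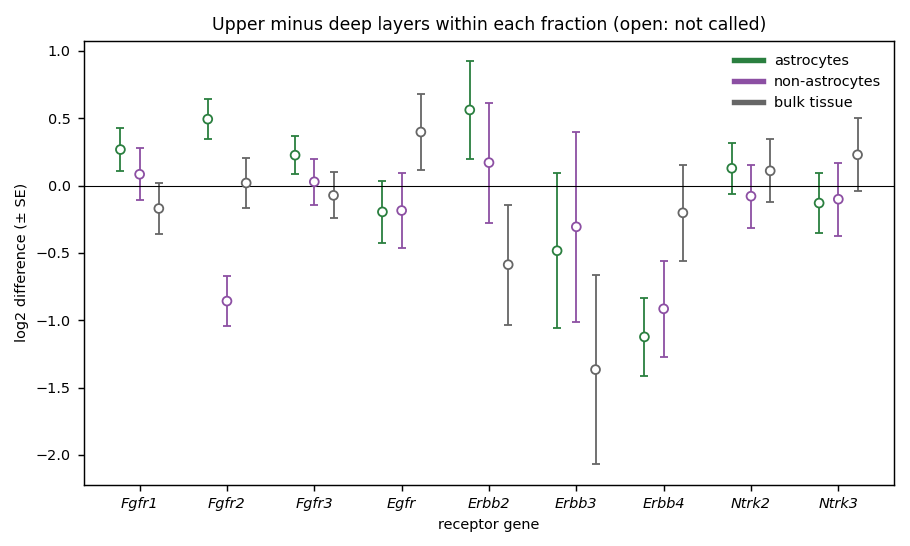
Log2 difference of each receptor gene, upper minus deep layers, in astrocytes, non-astrocytes and bulk tissue, with standard errors; open points were not called, and none was called. Fgfr2 is at 0.49 in astrocytes, -0.86 in non-astrocytes and 0.02 in bulk tissue.

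Whether the layer difference itself differed between fractions was tested as an interaction. Between astrocytes and non-astrocytes, 0.00443% of all genes (1) were called, and none of the 9. Fgfr2 came closest, with layer differences 1.35 apart on the log2 scale (SE 0.24, unadjusted p = 4.35e-05, adjusted p = 0.234), and it was the only one of the 9 with an unadjusted p below 0.05. DESeq2 called it (adjusted p = 5.45e-04) and edgeR did not. Between astrocytes and bulk tissue, 0.137% of all genes (31) were called and none of the 9, none with an unadjusted p below 0.05, and none by edgeR or DESeq2. The smallest adjusted p there was 0.653, for Fgfr2, Erbb2 and Erbb4.

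Across the 14 libraries, the genes most like each receptor gene were found by the root mean square difference of log2 values, each gene centred on its own mean, among 8585 genes. The libraries share their fraction, and the likeness says nothing of shared function. Ntrk2 was closest to Prdx6 (0.16) and Fgfr1 to Ptpn13 (0.17). Fgfr3 was closest to Slc7a10 (0.24), Fgfr2 to Fzd1 (0.27), Egfr to Vcam1 (0.30), Erbb2 to Itga7 (0.28) and Ntrk3 to Mir9-3hg (0.23). Erbb3 was closest to the myelin gene Cldn11 (0.62), with Tmsb10 (0.66) and Sulf2 (0.69) next. Erbb4 was closest to the glutamate receptor gene Gria4 (0.46), with Basp1 (0.47) and Tppp (0.49) next. These root mean square differences grow with a gene's own spread, whose SD was 2.88 for Erbb3 and 3.06 for Erbb4 against 1.05 for Ntrk3. Within the 9, Egfr and Fgfr3 were most alike (0.58), and Egfr and Erbb4 least (5.28).

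The pathway genes are set beside all genes tested, of which 29.6% were higher and 36.8% lower in astrocytes than in non-astrocytes (median log2 -0.08), and 28.8% and 36.1% than in bulk tissue (-0.10). Log2 values in brackets are against non-astrocytes unless bulk tissue is named. Of the ligands, 8 of the 15 measured FGF genes passed the filter. Against non-astrocytes 5 were higher and none lower (median log2 0.73), and against bulk tissue 3 were higher and 4 lower (median -0.69). Fgf1 was at 4364 ± 945 (SD, n = 6) in astrocytes against 266 ± 42.9 (n = 4), log2 4.02, and Fgf2, Fgf18 and Fgf5 were higher by log2 2.82, 3.66 and 0.85. Against bulk tissue Fgf1 (log2 1.52) and Fgf2 (3.52) were higher, and Fgf5 was not called (0.08, adjusted p = 0.804). Fgf18 had a mean of 1.11 in non-astrocytes, and its fitted difference from them ran from 1.80 to 4.90 over the alternatives, while against bulk tissue, at a mean of 68.1, it was lower in astrocytes (log2 -1.46, adjusted p = 0.00919). Of 4 EGF family ligands tested, Hbegf (log2 1.93) and Egf (1.29) were higher and Tgfa (-2.59) was lower. Against bulk tissue Hbegf (log2 2.18) and Egf (1.85) were higher and none was lower (median 1.07). Tgfa was not called against bulk tissue (-0.03, adjusted p = 0.949), at means of 681 in astrocytes, 624 in bulk tissue and 3638 in non-astrocytes. Of the 4 neuregulins, which bind ErbB3 and ErbB4, Nrg1 (2.92) and Nrg2 (1.23) were higher in astrocytes than in non-astrocytes and Nrg3 (-2.31) was lower. Against bulk tissue none was higher: Nrg2 (log2 -0.97) and Nrg3 (-6.41) were lower, and Nrg1 was not called (0.27, adjusted p = 0.195). Both Fgf5 and Egf lost their call in 1 of 23 alternatives.

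Among FGF co-receptors and binding proteins, 5 of 11 were higher and 5 lower (median log2 0.67), and 3 and 5 against bulk tissue (median -0.40). Fgfrl1, a receptor without kinase domain, was higher by log2 2.51 and the heparan sulphate proteoglycan gene Gpc4 by 1.96, while Flrt2 (-2.31) and Fgfbp1 (-5.70) were lower. Of 15 genes of ERK feedback and FGF response, 7 were higher and 5 lower against each of the other fractions (median 0.26 against non-astrocytes and 0.21 against bulk tissue). The ERK pathway inhibitor genes Spry2 (3.02) and Spred3 (2.27) and the FGF-induced transcription factor gene Etv4 (2.85) were higher, and the ERK phosphatase gene Dusp5 (-2.39) was lower. Against bulk tissue Spry2 (1.37) and Etv4 (3.01) were higher, Dusp5 (-3.54) was lower and Spred3 was not called (0.15, adjusted p = 0.372). Of 14 ErbB adaptors and inhibitors, 2 were higher, Lrig1 (3.14), which lowers ErbB receptor levels, and the adaptor gene Shc3 (2.67), and 8 were lower (median -0.79), among them Gab2 (-2.01) and Grb2 (-1.55). Against bulk tissue the balance of these 14 genes was the other way, with 7 higher and 3 lower (median 0.34). Of those named, Lrig1 was higher than in bulk tissue (3.55), and Shc3 (-0.63, adjusted p = 0.00421) and Grb2 (-1.61) were lower. Gab2 was not called against bulk tissue (-0.03).

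Of 10 neurotrophins and other neurotrophin receptors, 4 were higher and 4 lower (median -0.07), near the shares over all genes, and against bulk tissue 3 were higher and 6 lower (median -0.95). The sorting receptor gene Sorcs2 (4.57) and Kidins220 (1.43), a Trk scaffold, were higher, while Sorcs1 (-6.38) was lower. Of 46 other receptor tyrosine kinase genes tested, 7 were higher and 29 lower (median -1.02), and against bulk tissue 12 were higher and 29 lower (median -1.36). The lower ones with the smallest p were the endothelial receptor genes Tek (-5.66), Kdr (-6.31), Flt1 (-6.05) and Tie1 (-3.67). All of these are themselves among the 10 endothelial markers, which were all lower in astrocytes (median -5.89). The markers are therefore not a separate measure beside these genes. Between layers, 2 pathway genes were called. Ror2, a Wnt5a receptor, was at log2 -3.28 in upper layer astrocytes (adjusted p = 0.0319), a call kept in 11 of 23 alternatives. Its astrocyte values were low, from 1.09 to 45.4 (mean 18.5, SD 18.65), and its difference ran from -3.58 to -1.95 over the alternatives. Etv1, which also marks deep layer neurons, was at -1.09 in upper layer bulk tissue (adjusted p = 0.0497), kept in 9 of 24.

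**Figure D5:**
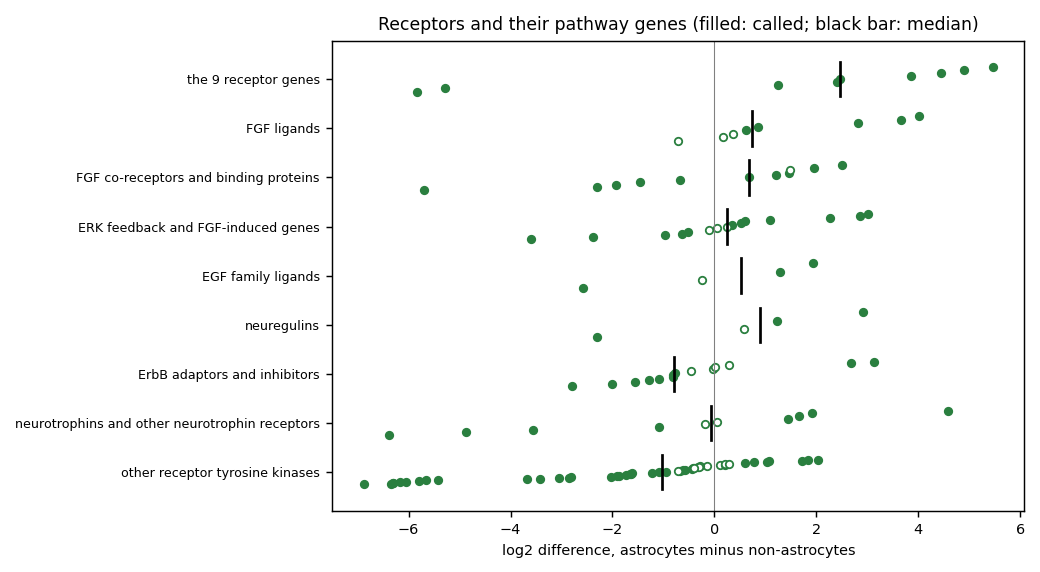
Log2 difference between astrocytes and non-astrocytes for the 9 receptor genes and for every tested gene of 8 pathway lists; each point is a gene, filled points were called, and black bars are medians. The receptor genes have a median of 2.46, and the other receptor tyrosine kinases one of -1.02.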

How the data were processed

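Gene counts divided by a size factor per library (a normalised signal, called normalised read counts here) were deposited by the authors for 14 libraries. HTSeq 0.6.1p1, DESeq2, TopHat2 2.0.11 and CASAVA are the tools named with the GRCm38 build in the submitters' processing notes; use of strand is not given in the sources used here. All values were whole multiples of 1 read within 1e-06, so the 18226457 to 30316765 reads in genes per library could be recovered for count tests; intervals on reads cover counting error only. Library titles gave the groups.

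Genes with a value of at least 10 in at least 2 libraries (22575 of 32830) were compared as log2(value + 1) with limma 3.58.1 (trend, robust; R 4.3.3), with 6 group means and 8 residual degrees of freedom. Benjamini-Hochberg adjustment ran over all genes within each comparison, and an adjusted p below 0.05 was called. Fractions were compared with both layers weighted equally. Symbols came from GENCODE M21 (32007 identifiers matched) and promoters from RefSeq (GRCm38.p6). Scripts were tested on simulated data. Alternatives were pseudocounts, no filter, TMM scaling, edgeR 4.0.16 and DESeq2 1.42.0 on recovered reads, other variance models, only the groups compared, a replicate block, and leaving out each library.

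The numbers were taken to pair upper and deep astrocytes: same-numbered libraries deviated together from their group means with correlations of 0.203, 0.149 and 0.171. In non-astrocytes (0.436) and bulk tissue (0.0937) there were 2 pairs each, and the labels do not say what a number marks.

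The 9 receptor genes and all lists were chosen with earlier results of these data known. All 9 receptor genes are named. From each pathway list, the text draws on the 4 genes with the smallest p among those called between astrocytes and non-astrocytes, and up to 2 called between layers. One gene that this rule names is not reported here.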

Additional observations from a re-analysis of the deposited data

Results flagged for a closer look

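For each receptor gene and fraction, 27 sets in all, the highest and lowest library of both layers were compared with the rest of the set, a check that chance alone trips in about 1 of 20 sets. Egfr was far above the other 5 astrocyte libraries in deep layer astrocytes replicate 2, at 40042, with a gap of 0.737 of the whole range. Among non-astrocytes, Egfr was highest in deep layer replicate 1, at 925, with a gap of 0.912 of the range over 4 libraries. The layer difference of Fgfr2 ran in opposite directions in astrocytes and non-astrocytes with no overlap between layers in either, and the differences were 1.35 apart on the log2 scale, which the interaction test did not call (adjusted p = 0.234, limma). The layer difference of Egfr also ran in opposite directions in non-astrocytes and bulk tissue, without overlap between layers. It was -0.58 apart on the log2 scale, which was not tested. In non-astrocytes the layers were separate only by 747 in deep replicate 2 against 732 in upper replicate 2. Leaving out single libraries moved that difference from log2 -0.34 to -0.031, so it leaned on the flagged library.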

How the results depend on the processing

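All 9 calls in each comparison of astrocytes with another fraction kept their direction and side of the threshold in all 23 alternatives. The calls lost between non-astrocytes and bulk tissue without single libraries are given above; Egfr was also lost without trend and robust moderation (adjusted p = 0.0550), and Erbb3 was gained with only the groups compared (0.0301). Between layers, the number of receptor genes called was 2 in non-astrocytes with DESeq2, 1 in bulk tissue with DESeq2, 1 in bulk tissue with only the groups compared, and 1 for the layer difference between astrocytes and non-astrocytes with DESeq2; the cause was not tested. With the replicate number as a block no receptor gene was called between layers, the calls between fractions stayed as they were, and the adjusted p of the Fgfr2 layer difference between astrocytes and non-astrocytes was 0.0795, or 0.0701 with a block within each fraction. Over all genes, 89 and 188 were called between astrocyte layers with these blocks, and 142 with DESeq2. In bulk tissue 168 and 261 were called with the blocks, 428 with DESeq2 and 1093 with only the groups compared. In non-astrocytes 3 and 33 were called with the blocks and 139 with DESeq2. For the layer differences the blocks gave 3 and 4 (astrocytes against non-astrocytes) and 52 and 112 (against bulk tissue), and DESeq2 59 and 200.

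The differences that changed sign were called in neither direction. The largest of them with all libraries were log2 -0.59 for Erbb2 between bulk layers and -0.48 for Erbb3 between astrocyte layers. The layer difference between astrocytes and non-astrocytes turned for Erbb3 to 0.19 with a pseudocount of 8, 0.16 with edgeR and 0.21 with DESeq2, and for Erbb4 to 0.093 with a pseudocount of 8. That of Ntrk2 between astrocytes and bulk tissue turned to -0.0090 with TMM scaling, -0.043 with edgeR and -0.016 with DESeq2. Leaving out single libraries gave these log2 ranges. For upper against deep astrocytes, Egfr ran from -0.42 to 0.15, Erbb3 from -1.36 to 0.075 and Ntrk3 from -0.32 to 0.12. In non-astrocytes, Fgfr1 ran from -0.14 to 0.31, Fgfr3 from -0.14 to 0.19, Erbb2 from -0.041 to 0.38, Ntrk2 from -0.34 to 0.18 and Ntrk3 from -0.35 to 0.14. In bulk tissue, Fgfr2 ran from -0.21 to 0.25 and Erbb2 from -1.28 to 0.11. For the layer difference between astrocytes and non-astrocytes, Fgfr1 ran from -0.040 to 0.41, Egfr from -0.24 to 0.34, Erbb3 from -1.06 to 0.38, Erbb4 from -0.50 to 0.084, Ntrk2 from -0.055 to 0.47 and Ntrk3 from -0.27 to 0.22, and between astrocytes and bulk tissue Ntrk2 from -0.096 to 0.24. Where a group kept 1 library, it was assumed to vary like the others. The alternatives for single pathway genes were chosen after seeing the data. Depth limits Erbb3 in astrocytes, which rests on 1 to 13 reads per library.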
